A study of Homo sapiens with 24 samples.

Results

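The genes described here encode nuclear subunits of the 5 oxidative phosphorylation complexes of the inner mitochondrial membrane. They were chosen by gene symbol, with a rule that uses no measured value: NDUFA, NDUFB, NDUFC, NDUFS and NDUFV followed by a number, the SDH subunits, CYC1 and the UQCR subunits, the COX4I to COX8 subunits, and the ATP5 subunits, without pseudogenes. The rule found 74 of the 19775 genes that had a probe set of their own. Complex I had 32 of them, complex II 3, complex III 7, complex IV 17 and complex V 15. A further 3 genes spelled out in the rule have no probe set that names only them and are not analysed here.

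RNA was measured on 24 Affymetrix U133 Plus 2.0 arrays of established human embryonic stem cell lines. In the inhibitor experiment, the lines H1, H9 and HSF1 (here the name of a cell line) were grown for 5 days with 250 nM AZD3965 (MCT1i) or with its vehicle DMSO, and each treatment was applied to feeder-supported (FS) cultures, which grow on mouse embryonic fibroblasts, and to feeder-free (FF) cultures. Each of these 4 groups (FS with inhibitor, FS with DMSO, FF with inhibitor, FF with DMSO) held 1 array per line. In the medium experiment, feeder-free H9 and HSF1 cells were grown in medium conditioned by mouse embryonic fibroblasts (CM) or in unconditioned medium (UM), with 3 biological replicates of each line in each medium. The duration of conditioned-medium treatment is 5 days per the labels but 24 hours in the study's design text, and which of these applies was not settled. Each array carries 1 log2 value per probe set, and a gene was represented by its brightest probe set.

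Oxidative phosphorylation passes electrons from NADH and succinate along complexes I to IV to oxygen, pumps protons at complexes I, III and IV, and makes ATP at complex V. Most subunits are encoded in the nucleus, while a small core of complexes I, III, IV and V is encoded in mitochondrial DNA. Human pluripotent stem cells are known for a high rate of glycolysis and for exporting much of their pyruvate as lactate, and AZD3965 blocks MCT1, a transporter that carries lactate and pyruvate across the plasma membrane. The comparisons ask how the RNA of the respiratory subunits stood with that transporter blocked, with feeder cells, and with medium from feeder cells.

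The arrays carried the pluripotency genes of the list at high levels. All 10 measured markers lay above a log2 value of 5 on every array, NANOG at 11.6 to 12.5 and SOX2 at 11.6 to 13.0. The FS HSF1 arrays stood apart, with correlations of 0.860 to 0.961 to the other 22 arrays, against 0.948 to 0.998 among those 22. The interquartile range of values within an array, a measure of contrast, was 2.45 to 2.84 in FS cultures with inhibitor and 2.45 to 2.85 in FS cultures with DMSO. It was 3.20 to 3.30 in FF cultures with inhibitor and 3.08 to 3.22 in FF cultures with DMSO. The summed level of 30 fibroblast markers was 15.1 to 15.8 and 15.1 to 15.7 on the log2 scale in FS cultures with inhibitor and with DMSO. It was 13.9 to 14.2 and 13.6 to 14.6 in FF cultures with inhibitor and with DMSO. In each FS group 28 of these 30 markers were above 5 on every array, against 25 in FF cultures with inhibitor and 26 with DMSO. Fewer cells of a type and less RNA per cell cannot be told apart in such bulk RNA.

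Of the 74 subunits, 72 passed the filter for testing, a log2 value above 5 on at least 3 of the 12 arrays of an experiment. The other 2, COX7B2 and COX8C, are paralogs of complex IV subunits known for expression in testis, and the highest values over all 24 arrays were 4.52 for COX7B2 and 3.30 for COX8C. Of all 74, 67 had a mean value above 9, between 9.61 and 13.6. The remaining 5, with means from 5 to 9, included the tissue-restricted paralogs COX4I2, COX6A2, COX6B2 and COX7A1, and also ATP5MF, whose only probe set naming a single gene read 6.08 on average. Levels of different probe sets were not compared with each other.

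With the MCT1 inhibitor, the levels of most subunits were slightly above those with DMSO, but no subunit passed the test in the fit that held only the line as a block. Over both culture systems, 59 of 72 subunits had a positive difference, with a median log2 difference of 0.14 over the subunits and -0.0038 over all 17218 genes tested. In single pairs of arrays 44 to 67 of 72 subunits were above 0, against 8131 to 10006 of the 17218 genes. In that fit 0 of 72 subunits passed an adjusted p of 0.05 with limma and Benjamini-Hochberg adjustment, against 0.639% of all genes. At an unadjusted p below 0.05, 9 subunits were higher and 0 lower, against 5.74% and 2.35% of all genes. The spread in this fit also holds how differently the lines stood with and without feeders. A fit that blocks each pair of inhibitor and DMSO arrays of the same line and culture takes that out, and it called 28 of 72 subunits higher and 0 lower, against 8.01% of all genes called higher and 3.57% called lower. This pair-blocked fit treats the pairs as independent, although each line gives both a feeder-supported and a feeder-free pair. Its p-values therefore do not account for a line that responds alike in both cultures.

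Counting the 6 pairs directly needs no model, though each line again gives both a feeder-supported and a feeder-free pair. In 35 of 72 subunits the inhibitor array was above its DMSO array in 6 of 6 pairs, against 9.93% of all genes. Only 2 subunits, NDUFA9 and COX4I2, were lower in 6 of 6 pairs, against 6.54% of all genes. Pair by pair, the median difference over the subunits was 0.12 in H1, 0.17 in H9 and 0.03 in HSF1 on feeders, and 0.15 in H1, 0.31 in H9 and 0.10 in HSF1 without feeders. All 6 medians were above 0, while the medians over all genes lay between -0.01 and 0.06. The pair of feeder-free H9 gave the largest of the 6 differences for 49 of 72 subunits, as the plot of inhibitor differences by pair shows. The interquartile range of the arrays was also higher with inhibitor than with DMSO in the 3 FF lines and in FS H9, and its part in these differences was not tested. After quantile normalization, which gives every array the same distribution, the median over the subunits was 0.15.

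**Figure D1:**
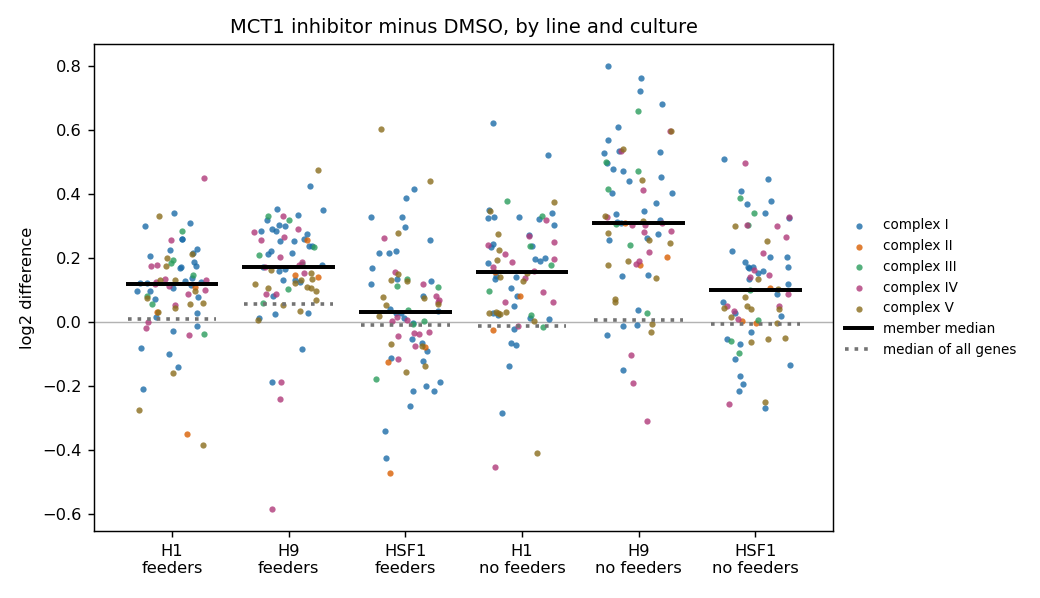
Log2 difference of inhibitor minus DMSO for the 72 tested subunits in each of the 6 pairs of arrays, feeder-supported pairs left of feeder-free pairs, with 1 point per subunit coloured by complex, a black bar at the median of the subunits and a grey dotted bar at the median of all genes. The median of the subunits lies above that of all genes in each pair, by least in feeder-supported HSF1 and by most in feeder-free H9.

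Complex I, the NADH dehydrogenase, held most of the called subunits: 16 of 32 were called higher in the pair-blocked fit and 17 of 32 were higher in every pair. Its median difference over both cultures was 0.19. NDUFA1, a small accessory subunit encoded on the X chromosome, read 11.75, 11.38 and 11.35 in FS cultures with inhibitor (H1, H9, HSF1) and 11.45, 11.04 and 10.96 in FS cultures with DMSO. Without feeders, NDUFA1 read 11.69, 11.64 and 11.82 with inhibitor and 11.37, 11.14 and 11.48 with DMSO. Every inhibitor array lay above its DMSO partner by 0.30 to 0.50, and without feeders the groups did not overlap. The mean difference was 0.36 (SE 0.0472, adjusted p = 0.00207 by limma in the pair-blocked fit).

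NDUFS7, a core subunit that carries an iron-sulphur cluster, was higher with inhibitor in 5 of 6 pairs. It read 9.95, 10.00 and 9.81 in FF cultures with inhibitor against 9.32, 9.23 and 9.30 with DMSO, and 9.68, 9.64 and 9.28 in FS cultures with inhibitor against 9.45, 9.39 and 9.28 with DMSO. The feeder-free groups were well apart, while on feeders the HSF1 pair differed by only -0.003. The difference of the inhibitor effect between FS and FF cultures was -0.47 and did not pass the test (SE 0.265, adjusted p = 1.00 in the line-blocked fit). Over both cultures the mean difference of NDUFS7 was 0.39 (adjusted p = 0.0227, limma with pairs as block). NDUFV1, which holds the NADH-binding site, was the other called core subunit, at 0.27 (adjusted p = 0.0322, limma with pairs as block), and the core subunits NDUFS1, NDUFS3 and NDUFV2 gave -0.01, -0.06 and 0.05 and did not pass.

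Among the accessory subunits of complex I, NDUFS4, which helps to hold the NADH-oxidising arm together and is mutated in Leigh syndrome, had a difference of 0.38 (adjusted p = 0.0112, limma with pairs as block). NDUFA7 gave 0.37 and NDUFA10 0.34, and both were higher in 6 of 6 pairs. NDUFB3, NDUFB7, NDUFB10 and NDUFA11, accessory subunits of the membrane arm, gave 0.30, 0.33, 0.26 and 0.30. NDUFA9, an accessory subunit near the quinone site, went the other way. It read 10.88, 10.54 and 9.40 in FS cultures with inhibitor against 11.02, 10.62 and 9.58 with DMSO, and 10.53, 10.38 and 10.31 in FF cultures with inhibitor against 10.81, 10.53 and 10.58 with DMSO. Each NDUFA9 pair was lower with inhibitor, by -0.08 to -0.29, and the mean of -0.19 narrowly missed the test (adjusted p = 0.0513, limma with pairs as block).

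Complex II, succinate dehydrogenase, was the exception: 0 of its 3 measured subunits were called and 0 were higher in every pair. SDHA, the flavoprotein that oxidises succinate, differed by -0.02, with pairs from -0.47 in FS HSF1 to 0.26 in FS H9. The membrane anchors SDHC and SDHD differed by 0.07 and 0.05. With 3 genes, this describes those genes only.

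In complex III, the cytochrome bc1 complex, 3 of 7 subunits were called higher. UQCR11, a small accessory subunit, read 11.46, 11.18 and 10.61 in FS cultures with inhibitor against 11.18, 10.86 and 10.50 with DMSO, and 11.39, 11.18 and 11.47 in FF cultures with inhibitor against 11.15, 10.71 and 11.17 with DMSO. Every pair was higher with inhibitor, FS HSF1 by least, and the groups without feeders did not overlap. Its mean difference was 0.29 (SE 0.0559, adjusted p = 0.00882, limma with pairs as block). CYC1, the cytochrome c1 that hands electrons to cytochrome c, gave 0.28 and the core protein UQCRC2 gave 0.32. The other core protein, UQCRC1, was at 0.0025 (3 of 6 pairs higher).

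Complex IV, cytochrome c oxidase, had 6 of 15 tested subunits called higher: COX5A, COX6B1, COX6C, COX7A2, COX7A2L and COX7B. COX6C read 12.65, 12.26 and 11.82 in FS cultures with inhibitor against 12.52, 11.93 and 11.74 with DMSO, and 12.56, 12.43 and 12.64 in FF cultures with inhibitor against 12.32, 12.01 and 12.31 with DMSO. All 6 pairs were higher, by 0.08 to 0.41, with a mean of 0.25 (adjusted p = 0.00919, limma with pairs as block). None of the tested tissue-restricted paralogs COX4I2, COX6A2, COX6B2 and COX7A1 was called, with differences of -0.14, 0.12, -0.02 and 0.04. Their ubiquitous counterparts gave 0.12 for COX4I1 and 0.08 for COX6A1, which did not pass, 0.23 for COX6B1 and 0.22 for COX7A2. COX7A2L, a subunit-like protein that joins complexes III and IV into supercomplexes, gave 0.19.

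Complex V, the ATP synthase, had 3 of 15 subunits called higher, ATP5MC1, ATP5MC3 and ATP5PD. ATP5MC1, which encodes the c subunit of the proton-driven ring, read 10.72, 10.71 and 10.61 in FS cultures with inhibitor and 10.52, 10.24 and 10.00 in FS cultures with DMSO. Without feeders it read 10.82, 10.78 and 10.80 with inhibitor and 10.45, 10.19 and 10.54 with DMSO. Every inhibitor array was above every DMSO array, so the groups did not overlap in either culture system. At 0.42 (SE 0.0684, adjusted p = 0.00471, limma with pairs as block), this was the largest difference of the 72 subunits. ATP5MC2 and ATP5MC3 encode the same mature c subunit behind different import sequences, and gave 0.13 (adjusted p = 0.0834) and 0.16 (adjusted p = 0.0291, limma with pairs as block). The catalytic subunits ATP5F1A and ATP5F1B were at -0.03 and -0.07, each higher in 3 of 6 pairs.

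**Figure D2:**
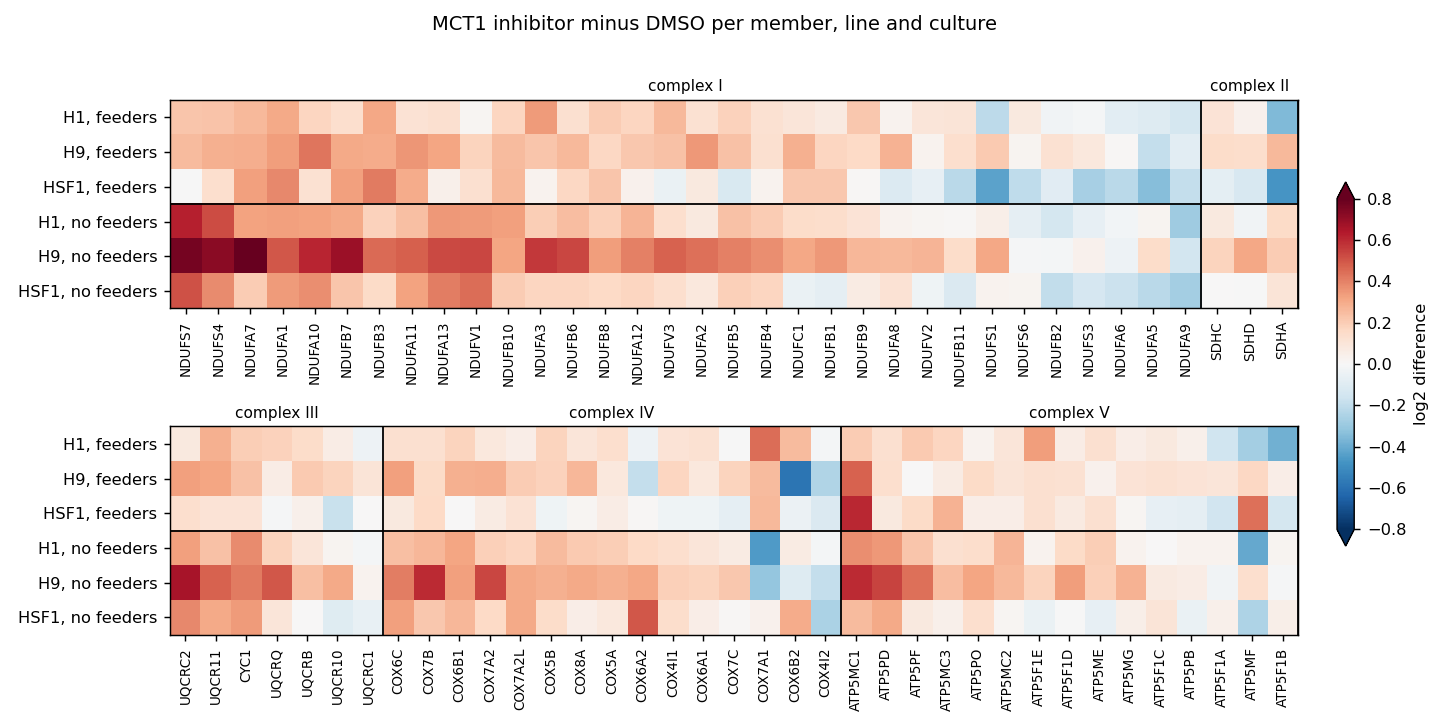
Heat map of the inhibitor minus DMSO log2 difference for the 72 tested subunits, ordered by complex along the horizontal axis, in the 6 pairs of arrays, with feeder-supported pairs above feeder-free pairs and the colour scale running between -0.8 and 0.8. Of the 72 columns 35 are positive in every row, NDUFA9 and COX4I2 are negative in every row, and the row of feeder-free H9 is the strongest.

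The call depended on the lines that entered. Without H1 the pair-blocked fit called 5 subunits higher (3.22% of all genes), without H9 it called 3 (2.13%) and without HSF1 it called 24 (5.28%). With both FS HSF1 arrays left out it called 34 (10.7% of all genes). With the mean of a gene's probe sets it called 18 higher and 1 lower (5.99% of all genes higher), and 28 subunits were then higher in 6 of 6 pairs (9.39% of all genes). The feeder-free pairs alone gave 30 higher and 1 lower (12% of all genes higher), and the feeder-supported pairs alone gave 2 higher (1.47%). Over both culture systems the line-blocked fit called 45 subunits higher and 2 lower with array weights (20.3% of all genes higher), 26 higher with the FS HSF1 arrays left out (6.01%), 6 without HSF1 (2.35%) and 3 after quantile normalization (0.43%). In the line-blocked fit, 0 of 72 subunits passed in FF cultures (0.842% of all genes) and 0 in FS cultures (0.00581%). At an unadjusted p below 0.05, 8 subunits were higher in FF cultures (5.25% of all genes) and 1 in FS cultures (1.17%), and none was lower. The difference of the inhibitor effect between FS and FF cultures passed for 0 of 72 subunits (0.0174% of all genes; 0 at an unadjusted p below 0.05, against 0.801% of all genes with a higher and 1.27% with a lower effect on feeders), so a difference between the culture systems was not detected.

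Other lists tied to the respiratory chain were measured in the same pair-blocked fit. In it 8.01% of all genes were called higher and 3.57% lower, the shares to set beside each count below. Of 47 assembly factors, which build the complexes but do not stay in them, 9 were called higher and 0 lower, among them SDHAF4 (0.85), NDUFAF3 (0.58) and COX15 (0.40). Of 75 mitochondrial ribosomal protein genes 13 were called higher, and of 62 cytosolic ribosomal protein genes 8 were called higher, with 0 lower in both lists. Of the 7 mitochondrially encoded subunits, 0 were called and 0 were higher in every pair, and their median was -0.10. Of 20 regulators of mitochondrial biogenesis, 1 was called higher (TFB1M, 0.40) and 2 lower (LIN28A, -0.18, and LIN28B, -0.19). Of 17 glycolysis genes 2 were called higher, ENO2 (0.43) and PGK1 (0.14), and 1 lower, HK2 (-0.41). In that fit 7 of 30 fibroblast markers were also called higher, LGALS1 by 1.92, and 4 of 10 pluripotency markers were called lower, SALL4 by -0.38. The fibroblast markers that did not pass went both ways, from -0.64 for TAGLN to 0.86 for LUM. So did the pluripotency markers that did not pass, from -0.19 for DNMT3B to 0.13 for NANOG. The part of these shifts in the subunits' differences was not tested.

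The promoters of the subunits are shown because many of them moved together, and because respiratory subunit promoters are known to hold sites of NRF1, of ETS-family factors such as GABP, and of YY1. Sequences come from RefSeq on GRCh38.p14, where 62 of the 74 subunits had an entry, with 75 windows of 250 bases before and 50 after a start site. Both strands were searched for GCGCANGCG (NRF1), CCGGAAG (ETS) and AAGATGGC (YY1). The 5 windows below belong to called subunits that hold at least 1 match, and run from 150 bases before to 30 bases after the start site, on the strand of the gene. Capitals mark the matches, in either orientation. NDUFA1 lies at chrX:119871682-119871861 on the plus strand, NDUFS7 at chr19:1383757-1383936 on the plus strand, NDUFA3 at chr19:54102705-54102884 on the plus strand, UQCR11 at chr19:1605433-1605612 on the minus strand and ATP5PD at chr17:75046940-75047119 on the minus strand.
NDUFA1: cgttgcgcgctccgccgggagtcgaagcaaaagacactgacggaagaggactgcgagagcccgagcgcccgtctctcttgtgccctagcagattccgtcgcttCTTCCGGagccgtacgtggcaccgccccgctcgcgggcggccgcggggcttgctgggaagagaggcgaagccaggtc
NDUFS7: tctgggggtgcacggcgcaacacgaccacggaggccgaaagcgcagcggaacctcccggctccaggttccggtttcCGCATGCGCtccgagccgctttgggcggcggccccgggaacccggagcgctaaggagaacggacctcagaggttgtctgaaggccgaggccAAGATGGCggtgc
NDUFA3: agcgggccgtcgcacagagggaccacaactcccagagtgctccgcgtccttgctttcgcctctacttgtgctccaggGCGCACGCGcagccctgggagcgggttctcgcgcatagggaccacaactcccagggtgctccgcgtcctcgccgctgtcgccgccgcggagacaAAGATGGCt
UQCR11: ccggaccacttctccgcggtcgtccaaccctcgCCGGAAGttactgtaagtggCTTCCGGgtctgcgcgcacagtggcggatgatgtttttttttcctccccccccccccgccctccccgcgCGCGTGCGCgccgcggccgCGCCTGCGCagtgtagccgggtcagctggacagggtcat
ATP5PD: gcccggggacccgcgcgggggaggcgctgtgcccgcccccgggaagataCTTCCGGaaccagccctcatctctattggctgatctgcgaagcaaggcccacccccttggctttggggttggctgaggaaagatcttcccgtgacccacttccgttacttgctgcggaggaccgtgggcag
Counted from the start site, NDUFA1 holds an ETS match that begins at position -47 and ATP5PD one that begins at position -101. NDUFS7 holds an NRF1 match at position -74 and a YY1 match at position 18, and NDUFA3 holds an NRF1 match at position -73 and a YY1 match at position 22. UQCR11 holds 2 NRF1 matches and 2 ETS matches.

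Over the 75 windows of the subunits, the NRF1 letters were found in 21 (28%), the ETS letters in 19 (25.3%) and the YY1 letters in 12 (16%). Over all 35116 windows of the same length, the shares were 7.52%, 10.3% and 2.89%. At least 1 of the 3 motifs was found in 40 of the 75 windows (53.3%), against 18.4% of all windows. Of 25 called subunits with a promoter entry 6 held the NRF1 letters, 6 the ETS letters and 5 the YY1 letters, and of 37 other subunits 15, 12 and 6 did. A match is a string of letters and not a measured binding site.

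With DMSO, most subunits read lower on feeders than without them, as did the median gene tested, and few passed the test in either direction. The median difference of FS minus FF was -0.24 over the 72 subunits and -0.19 over all genes, and 60 of 72 subunits were below 0. These directions belong to the deposited scale, since after quantile normalization the median over the subunits was 0.07 and that over all genes 0.02. Of 72 subunits, 3 were called higher and 3 lower, against 39.3% of all genes called in either direction (15.2% higher and 24.1% lower). In 35 of 72 subunits the level was lower on feeders in 3 of 3 lines, against 43% of all genes, and in 6 of 72 it was higher in 3 of 3 lines.

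With the inhibitor present in both cultures, 2 subunits were called higher on feeders and 13 lower, against 47.1% of all genes (19.3% higher and 27.8% lower). The median over the subunits was -0.33, against -0.20 over all genes, and after quantile normalization it was -0.05. In 48 of 72 subunits the level was lower on feeders in 3 of 3 lines, against 41.8% of all genes. The lines differed widely: with DMSO the median over the subunits was -0.07 in H1, -0.06 in H9 and -0.61 in HSF1, and with inhibitor it was -0.13, -0.19 and -0.71. In 63 of 72 subunits the DMSO difference was lowest in HSF1, whose FS arrays stand apart. The DMSO median over all genes was lowest in HSF1 too, at -0.28, against -0.09 in H1 and -0.12 in H9. Without these FS HSF1 arrays the DMSO median was -0.07 over the subunits and -0.11 over all genes, and 17 subunits passed the test (48.6% of all genes). The ACTB 3-prime minus 5-prime difference of the control probe sets, which grows as RNA degrades, was -0.15 to 0.80 in FS cultures and 0.65 to 1.01 in FF cultures with DMSO, and with it as a covariate the DMSO median over the subunits was -0.01 and 1 subunit passed (2.04% of all genes). The plot of feeder differences by line shows the HSF1 columns below the others.

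**Figure D3:**
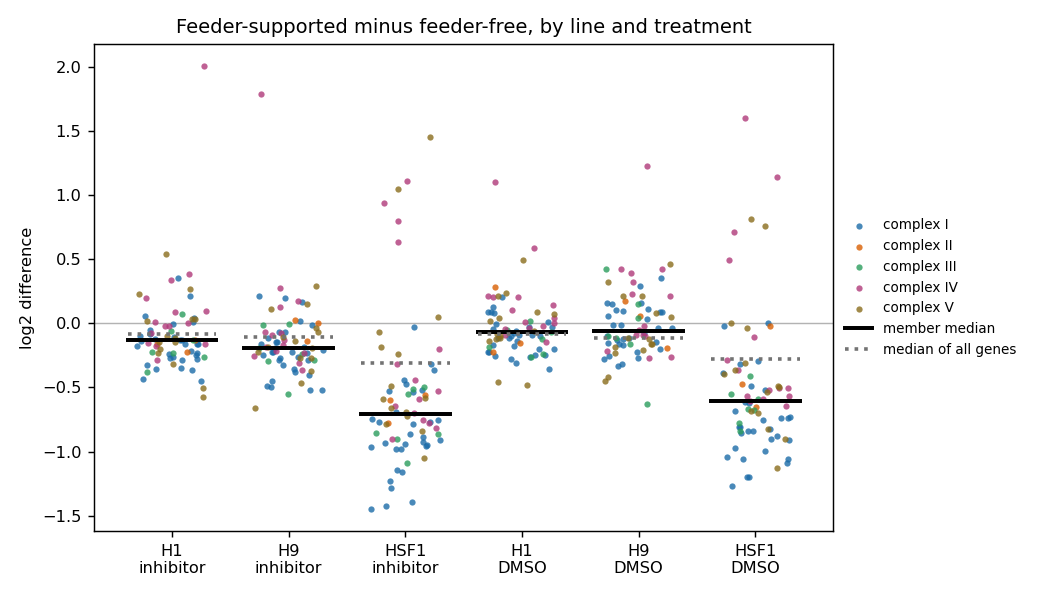
Log2 difference of feeder-supported minus feeder-free culture for the 72 tested subunits in each line, with inhibitor on the left and with DMSO on the right, with 1 point per subunit coloured by complex, a black bar at the median of the subunits and a grey dotted bar at the median of all genes. The medians of the subunits lie between -0.19 and -0.06 in H1 and H9 and reach -0.71 with inhibitor and -0.61 with DMSO in HSF1.

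By complex, the DMSO medians were -0.36 for complex I, -0.19 for II, -0.31 for III, -0.14 for IV and -0.22 for V, against -0.19 over all genes. No complex I subunit was called with DMSO, although 30 of 32 were below 0. NDUFA13, a complex I subunit also known as GRIM-19, gave -0.46 with DMSO (adjusted p = 0.0652, limma), and with inhibitor it gave -0.72 (SE 0.185, adjusted p = 0.0141, limma), a call that 3 of 12 alternatives ended. NDUFA10 gave -0.58 with DMSO and -0.77 with inhibitor, and passed with inhibitor (adjusted p = 0.0339, limma). Of 12 alternatives 6 ended that NDUFA10 call, and with the mean of its probe sets the difference was -0.0070 (adjusted p = 0.958, limma). The core protein UQCRC1 of complex III was called lower with DMSO at -0.47 (adjusted p = 0.041, limma).

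In complex V, the subunits called lower with DMSO were ATP5F1D and ATP5F1E, small parts of the central stalk. ATP5F1D, the delta subunit, read 10.15, 10.44 and 9.33 in FS cultures with inhibitor against 10.73, 11.11 and 10.38 in FF cultures with inhibitor. With DMSO it read 10.09, 10.33 and 9.26 in FS cultures against 10.58, 10.77 and 10.39 in FF cultures. All 3 lines were lower on feeders in both treatments, and the groups overlapped with inhibitor but not with DMSO. The difference of ATP5F1D was -0.76 with inhibitor (adjusted p = 0.0154) and -0.69 with DMSO (SE 0.202, adjusted p = 0.0249, limma). ATP5F1E, the epsilon subunit, was lower by -0.44 with inhibitor and by -0.59 with DMSO (adjusted p = 0.0183, limma). Of 12 alternatives, 5 ended the DMSO call of ATP5F1D, 5 that of UQCRC1 and 3 that of ATP5F1E. After quantile normalization the adjusted p was 0.167 for ATP5F1D and 0.746 for UQCRC1, and with the ACTB covariate it was 0.396 for ATP5F1D, 0.402 for UQCRC1 and 0.381 for ATP5F1E (limma).

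The called rises were in COX7A1, COX6A2 and ATP5MC3. COX7A1, the heart and skeletal muscle form of subunit VIIa, read 7.73, 6.41 and 6.58 in FS cultures with inhibitor against 5.72, 4.62 and 5.64 in FF cultures with inhibitor. With DMSO it read 7.28, 6.15 and 6.32 in FS cultures against 6.18, 4.93 and 5.61 in FF cultures. Each line was higher on feeders in both treatments, and the groups overlapped with DMSO only, where FS H9 lay just below FF H1. The difference was 1.58 with inhibitor (SE 0.204, adjusted p = 0.000866) and 1.01 with DMSO (SE 0.204, adjusted p = 0.00746, limma). Without H1, without H9 or with no block the DMSO call was lost, at adjusted p = 0.0681, 0.0879 and 0.104 (limma).

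COX6A2, the heart and muscle form of subunit VIa, read 6.32, 6.51 and 7.25 in FS cultures against 5.74, 6.09 and 5.65 in FF cultures with DMSO. Its difference of 0.87 was called with DMSO (adjusted p = 0.0241), and 0.47 with inhibitor was not (adjusted p = 0.128, limma). The COX6A2 call was lost after quantile normalization (adjusted p = 0.0866, limma), without H1 (0.0904), without H9 (0.0805), with no block (0.0653) and with the ACTB covariate (0.470). Beside these rises, 12 of 30 fibroblast markers were called higher on feeders with DMSO (40%, against 15.2% of all genes), S100A6 by 4.57 and TWIST1 by 3.74. None was called lower, and 23 of 30 were above 0 in H1, 24 in H9 and 20 in HSF1. Of 10 pluripotency markers 6 were called lower with DMSO (60%, against 24.1% of all genes). With inhibitor, 30% of the fibroblast markers were called higher and 13.3% lower, against 19.3% and 27.8% of all genes. There 15 of 30 were above 0 in HSF1. RNA of the feeder cells and a change in the stem cells cannot be told apart by these arrays.

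A single probe set of COX6A1, the ubiquitous form of subunit VIa, separated the culture systems by more than any other probe set of the subunits. Probe set 224344_at read 13.60, 13.60 and 14.13 in FS cultures with inhibitor and 13.36, 13.66 and 14.07 in FS cultures with DMSO. It read 5.35, 5.10 and 5.12 in FF cultures with inhibitor and 5.04, 5.23 and 5.23 in FF cultures with DMSO, and 5.08 to 5.58 on the 12 arrays of the medium experiment. The FS and FF values are far apart and no line or treatment bridges them. The FS minus FF difference with DMSO was 8.53 (SE 0.219, adjusted p = 9.27e-10, limma over all probe sets), which ranks at 2 of 54675 probe sets by size of the rise. Only 3 probe sets rose by more than 8. The brighter COX6A1 probe set, 200925_at, which represents the gene here, differed by -0.20 and did not pass. What 224344_at binds on the arrays of cultures with feeders was not tested.

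Probe sets of the same subunit also disagreed elsewhere. Of 39 subunits with more than 1 probe set, 18 had probe sets of opposite sign in the DMSO feeder comparison and 13 in the inhibitor comparison. Taken as single probe sets, 28 of 135 were called in the DMSO feeder comparison, against 39.5% of all probe sets, and 42 with inhibitor, against 47.2%. For ATP5MC3, 207508_at rose by 0.59 on feeders with DMSO (adjusted p = 0.0119, limma over all probe sets), 207507_s_at differed by 0.16 and 228168_at by -0.51, neither of which passed. With the mean of its probe sets ATP5MC3 was at -0.0069 on feeders with inhibitor and 0.08 with DMSO, and both calls were lost (adjusted p = 0.964 and 0.596, limma). Large falls on feeders were found in probe sets that do not represent their gene here, 239252_at of COX7B (-1.66), 209065_at of UQCRB (-1.33), 238191_at of SDHC (-1.32) and 228142_at of UQCR10 (-1.17), while 213736_at of COX5B rose by 0.89. The plot of single probe sets shows COX6A1, COX7A1 and ATP5MC3 on every array.

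**Figure D4:**
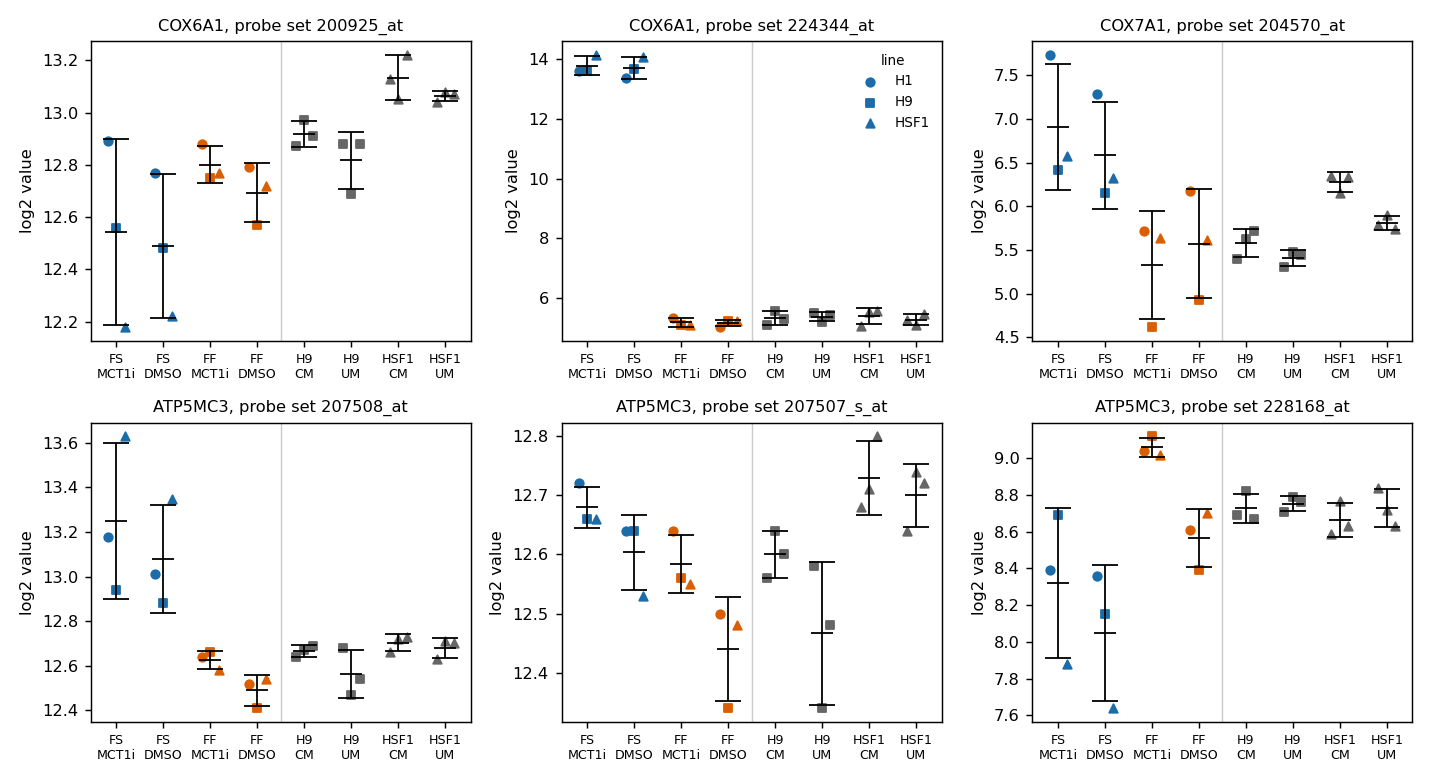
Log2 value on each of the 24 arrays in 8 groups for 6 probe sets of COX6A1, COX7A1 and ATP5MC3, with points for arrays and a bar for the mean ± SD of a group (n = 3), each panel with its own vertical axis. Probe set 224344_at of COX6A1 lies above 13 in both feeder-supported groups and below 6 in the 6 feeder-free groups, while 200925_at of the same gene shows no such gap.

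Of all genes, 24.1% were called lower on feeders with DMSO, and several other lists of the respiratory chain lay at or below that share. Of 47 assembly factors 9 were called lower (19.1%), COA7 by -1.27 and COX15 by -1.04, and of 75 mitochondrial ribosomal protein genes 16 were called lower (21.3%). Of 7 mitochondrially encoded subunits 1 was called lower, COX1 at -0.60. The regulators of mitochondrial biogenesis and the glycolysis genes lay above that share, as did the pluripotency markers given above. Among 20 regulators of mitochondrial biogenesis, 2 were called higher and 8 lower (40%), with POLRMT, the mitochondrial RNA polymerase, at -1.18 and POLG, the mitochondrial DNA polymerase, at -0.94. Of 17 glycolysis genes 10 were called lower (58.8%), ENO2 by -1.52 and ALDOC by -1.49. With inhibitor present, 27.8% of all genes were called lower on feeders. There the share was 38.3% of the assembly factors, 57.1% of the 7 mitochondrially encoded subunits and 26.7% of the mitochondrial ribosomal protein genes. It was 65% of the regulators of mitochondrial biogenesis and 52.9% of the glycolysis genes.

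Conditioned medium moved few subunits in either line. In H9, 2 of 72 subunits were called higher and 0 lower, against 16.4% of all genes (3.45% higher and 13% lower). In HSF1, 5 were called higher and 3 lower, against 18.3% of all genes (8.57% higher and 9.78% lower). The median CM minus UM difference over the subunits was 0.04 in H9 and 0.05 in HSF1, against -0.03 and 0.03 over all genes, and without replicates 2 and 3 of H9 in unconditioned medium the H9 median was -0.02. In those 2 arrays the ACTB 3-prime minus 5-prime difference was 3.25 and 2.89, against 1.42 to 1.84 in H9 in conditioned medium and 1.07 in replicate 1 of H9 in unconditioned medium.

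The H9 calls were ATP5PD, a stator subunit of complex V, and NDUFB10 of complex I. ATP5PD read 12.93, 13.05 and 13.05 in CM against 12.91, 12.61 and 12.86 in UM, a difference of 0.22 (SE 0.0698, adjusted p = 0.0413, limma). NDUFB10 read 11.60, 11.89 and 11.92 in CM against 11.77, 11.07 and 11.35 in UM, a difference of 0.41 (SE 0.128, adjusted p = 0.041, limma). The ATP5PD groups sat next to each other without overlap, and the NDUFB10 groups overlapped. The second NDUFB10 probe set differed by 0.07, and without replicates 2 and 3 of H9 in UM neither gene passed, at 0.10 for ATP5PD and 0.04 for NDUFB10 (adjusted p = 0.565 and 0.933, limma).

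In HSF1, 4 of the 5 subunits called higher belong to complex IV. COX7A1 read 6.35, 6.15 and 6.33 in CM against 5.79, 5.90 and 5.74 in UM, a difference of 0.47 (SE 0.104, adjusted p = 0.00472, limma). COX6B2, the testis form of subunit VIb, read 6.84, 6.59 and 6.45 in CM against 6.17, 6.29 and 6.20 in UM, a difference of 0.41 (adjusted p = 0.0104, limma). For both genes every CM array lay above every UM array. COX6B1, the ubiquitous form of that subunit, gave 0.33, COX7C 0.24 and NDUFA1 of complex I 0.24 (adjusted p = 0.00764, 0.00538 and 0.0291, limma). The NDUFA1 call was ended by 6 of 21 alternatives, with adjusted p up to 0.154 (limma). In H9 the same genes gave 0.17 for COX7A1, 0.29 for COX6B2, 0.05 for COX6B1, 0.11 for COX7C and 0.01 for NDUFA1, none of them past the test, and their differences between the lines did not pass either (adjusted p = 0.127 to 0.698, limma).

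The HSF1 subunits called lower were NDUFA5, NDUFC1 and SDHD. NDUFA5, an accessory subunit of the complex I matrix arm, read 10.91, 10.97 and 10.63 in CM against 11.36, 11.12 and 11.39 in UM in HSF1, and 11.21, 11.32 and 10.91 in CM against 10.78, 11.18 and 10.93 in UM in H9. In HSF1 every CM array lay below every UM array, while the H9 groups overlapped. The difference was -0.45 in HSF1 (adjusted p = 0.0141) and 0.18 in H9 (adjusted p = 0.298, limma). NDUFA5 was the only subunit whose effect differed between the lines by the test of the difference, at -0.64 for HSF1 minus H9 (SE 0.168, adjusted p = 0.031, limma), against 7.73% of all genes. NDUFC1 gave -0.21 and SDHD -0.30 in HSF1 (adjusted p = 0.0197 and 0.0379, limma). Of 21 alternatives 8 ended the NDUFC1 call and 6 the SDHD call, and with the mean of probe sets they gave -0.11 and -0.17 (adjusted p = 0.439 and 0.227, limma). The plot of medium effects places both lines' differences side by side.

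**Figure D5:**
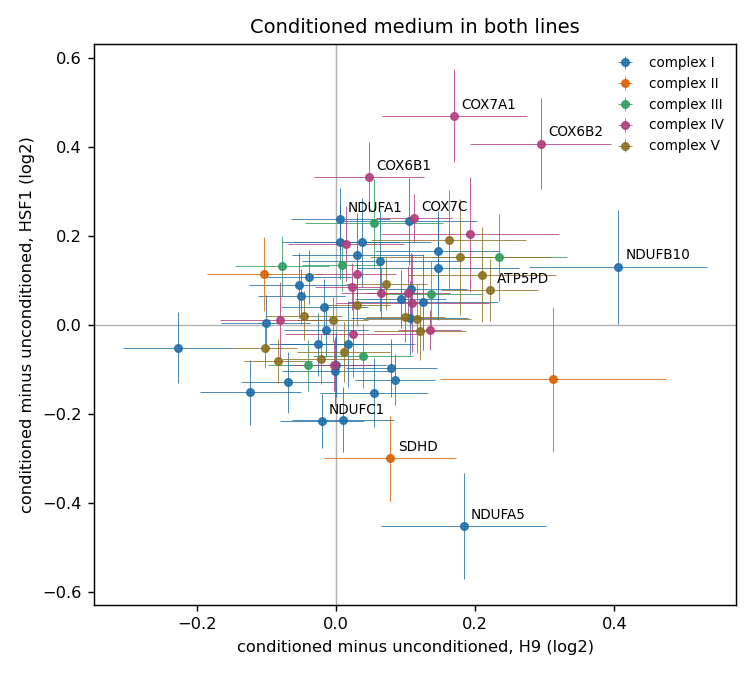
Log2 difference of conditioned minus unconditioned medium for the 72 tested subunits, HSF1 on the vertical axis and H9 on the horizontal axis, coloured by complex, with bars for the standard error of the fit (3 replicates per group) and labels on subunits past the test in either line. Most subunits lie near 0 in both lines, and NDUFA5 lies below 0 in HSF1 and above 0 in H9.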

How the data were processed

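The values analysed are those in the single table deposited by the authors, log2 intensities of 54675 probe sets on each of 24 arrays, from RMA per the submitters' processing notes. A Stratagene column kit served for RNA isolation and an Ambion kit for labelling, per the labels' protocols. The RMA version is not given in the sources used here. Deposited arrays had interquartile ranges of 2.45 to 3.30, so they do not share 1 distribution, and small shifts over many genes depend on the scaling. The median of an array lay between 6.09 and 6.35. Precision is limited by the number of arrays.

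Gene names came from GEO's platform annotation, which gave 1 symbol to 41097 probe sets, several to 1801 and none to 11777. Each gene was represented by its brightest probe set, by mean across the 24 arrays. Hyphenated, pseudogene and RNA-gene symbols (5) were left out. Genes above 5 on at least 3 of the 12 arrays of an experiment were tested, 17218 with the inhibitor and 16572 with medium. The tests were those of limma 3.58.1 under R 4.3.3, checked on simulated data, with eBayes moderation that lets the prior variance follow intensity, p-values adjusted by Benjamini-Hochberg over all genes tested and a threshold of 0.05. All 12 arrays of an experiment shared 1 estimate of the spread. In the simulated data, 0 of 200 genes changed by 0.3 on the log2 scale were recovered by the line-blocked or pair-blocked inhibitor fit or the DMSO feeder fit. At a change of 1 these fits recovered 80%, 95.5% and 51.5%. The medium fits recovered 9% in H9 and 15.5% in HSF1 at 0.3. Each simulation changed only 200 genes, while in the data the pair-blocked fit called 1994 genes and the DMSO feeder fit 6772. The adjusted threshold depends on how many genes change, so these recoveries do not carry over to those 2 fits. In the data the pair-blocked fit called subunits at differences down to 0.14. A gene that did not pass may still differ by such an amount.

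In the inhibitor experiment the replicate number is the cell line, so arrays of equal number are paired and the fit had the line as a block, with the block of line within culture as an alternative. In the medium experiment the replicate numbers are not stated to mark a shared batch, so no block was used. A check of the pairing gave correlations of -0.27 to 0.13 for equal numbers and -0.40 to 0.41 for unequal numbers. These are not correlations of the arrays themselves, which lay at 0.948 to 0.998 among the 22 arrays outside FS HSF1. P-values there measure the spread between biological replicates within a line, pooled over H9 and HSF1.

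The rule for the subunits reads symbols alone, but the choice of this set and of the other lists was made with earlier results of these data known. Named genes were the subunits with the largest changes past the threshold (up to 8 per direction, or the 4 smallest unadjusted p where fewer passed), tissue paralogs, subunits whose probe sets disagree, and up to 3 genes per other list by smallest p. Some genes with complete values in every pair were named after their values were seen. Alternatives were quantile normalization, a common median, the mean of probe sets, no filter, no trend, array weights, other blocks, an ACTB covariate and arrays left out. Promoter windows were searched for exact letters, and a longer form of the NRF1 letters, searched first, was found in fewer windows.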

Additional observations from a re-analysis of the deposited data

Results flagged for a closer look

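NDUFA5 was the only subunit whose conditioned-medium effect differed between the lines by the test of the difference, at -0.64 for HSF1 minus H9 on the log2 scale (SE 0.168, adjusted p = 0.031, limma). Its CM minus UM difference was -0.45 in HSF1, where 3 of 3 CM arrays lay below every UM array, and 0.18 in H9, where the groups overlapped. Over 21 alternatives the adjusted p of this difference ran from 0.00587 to 0.0878, and 7 of them ended the call.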

How the results depend on the processing

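The 24 arrays limit the precision, 1 array per line and condition with the inhibitor. The median inhibitor difference over the subunits kept its sign under every alternative run, at 0.11 to 0.18. The share of all genes called in the same fit stands in parentheses after each count of called subunits under an alternative. For the pair block this is the share called higher. Over both cultures (0 subunits) the count became 28 (11.6%) with the replicate block of line within culture, 3 (0.732%) with quantile normalization, 47 (34.2%) with array weights and 26 (7.94%) without the FS HSF1 arrays, and 0 to 6 (0.0116% to 2.88%) with each line left out. On feeders, array weights gave 9 (11.3%). Without feeders, quantile normalization gave 3 (0.72%), array weights 25 (13.9%) and the fit without the FS HSF1 arrays 22 (9.67%), with 0 to 4 (0.0348% to 2.54%) when each line was left out. With the pair block, the count of 28 became 19 (5.99%), 1 of them lower, with the mean of probe sets. It became 14 (6.63%) without the intensity trend, 2 (1.47%) with the FS pairs alone, and 3 to 24 (2.13% to 5.28%) with each line left out. Subunits higher in every pair (35) numbered 28 with the mean of probe sets and 35 to 54 with each line left out.

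For feeders with inhibitor (15), the count was 8 (45.6%) without the trend, 42 (71.3%) with array weights, 4 (19.3%) with no replicate block, 1 (4.35%) with the ACTB covariate, and 1 to 16 (4.59% to 38.4%) with each line left out. For feeders with DMSO (6), it was 16 (42.8%) with the mean of probe sets, 26 (66%) with array weights, 2 (10.7%) with no replicate block, 17 (48.6%) without the FS HSF1 arrays, 1 (2.04%) with the ACTB covariate, and 0 to 9 (2.14% to 37.5%) with each line left out. With the mean of probe sets, the feeder differences with inhibitor of ATP5MC3 (-0.0069) and ATP5F1A (0.14) reversed.

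For medium in H9 (2), the count was 0 (12.8%) with quantile normalization, 1 (13.1%) with no filter, 0 (14.6%) without the trend, 9 (25.8%) with array weights, 0 (11.7%) with the replicate block, 0 (3.96%) without UM arrays 2 and 3, 0 (8.86%) with the ACTB covariate, and 0 to 11 (8.01% to 32%) with single replicates left out. In HSF1 (8) it was 5 (16.9%) without the trend and 4 to 9 (11.2% to 23.5%) with single replicates left out. For the difference between lines (1), it was 0 (6.09%) without the trend, 5 (18.8%) with array weights and 0 to 5 (3.1% to 19.8%) with single replicates left out. Over the 32 called results of single named subunits, 483 alternatives were run, of which 322 kept the call, 159 ended it and 2 reversed the sign. Over the named results that were not called, 44 of 152 alternatives gave a call. The cause of these changes was not tested.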

Other observations

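Genes of mitochondrial function outside the nuclear subunits also included some called with conditioned medium. Of 7 mitochondrially encoded subunits 2 were called higher in H9 (28.6%) and 1 in HSF1 (14.3%). Of all genes 3.45% were called higher in H9 and 8.57% in HSF1. In HSF1 6 of the 7 subunits lay below 0. ND6, a complex I subunit encoded in mitochondrial DNA, was higher in CM than in UM by 1.14 in H9 (SE 0.0939, adjusted p = 8.40e-07) and by 0.78 in HSF1 (adjusted p = 2.17e-05, limma), and ND2, another such subunit, was higher by 0.21 in H9 (adjusted p = 0.0333). Of 20 regulators of mitochondrial biogenesis 2 were called in H9 (10%) and 4 in HSF1 (20%), against 16.4% and 18.3% of all genes called in either direction. In HSF1, TFAM and TFB2M, which start transcription of mitochondrial DNA, were lower in CM by -0.34 and -0.31 (adjusted p = 0.00848 and 0.00492, limma), while POLRMT was higher by 0.29 (adjusted p = 0.0258, limma). Of 48 assembly factors 3 were called lower in H9 (6.25%, against 13% of all genes), among them COA7 (-0.28). In HSF1 6 were called lower (12.5%, against 9.78% of all genes), among them SCO1 (-0.39) and NDUFAF6 (-0.36). The only assembly factor called higher was UQCC3 of complex III, by 0.31 in H9 and by 0.48 in HSF1.

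Of 13 other subunits and carriers, 3 were called with feeders under DMSO (23.1%), against 39.3% of all genes. Among them, UCP2, a carrier of the uncoupling-protein family, was lower in FS than in FF cultures by -1.84 (adjusted p = 0.000614, limma), and SLC25A4, the heart and muscle form of the ADP/ATP carrier, was higher by 0.75 (adjusted p = 0.0211, limma).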
